A study of Homo sapiens with 30 samples.

Results

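The genes described here are 31 genes of cholesterol and fatty acid synthesis, chosen by name from a fixed list: 7 enzymes of the mevalonate steps, 11 enzymes of the squalene and sterol steps, 4 regulators and carriers, and 9 genes of the fatty acid arm. Each name matched 1 row in both count tables, out of 58288 genes in the first and 20073 in the second, and all 31 passed the filter on low counts. RNA was sequenced from UMUC1 cells, a human line derived from bladder cancer and in established use. Its own UTX, the histone demethylase encoded by KDM6A, has lost its function by mutation per the series record, so the empty vector cells of every comparison are UTX-deficient. The study's title and design text ask how UTX and FGFR3 act on gene expression in these cells.

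In the first experiment the cells stably carried pSIN-puro, either empty (EV), with wild type UTX, or with UTX changed at H1146A and E1148A (HEAA), 2 changes in its catalytic domain. They were plated in full medium, which is MEM with 10% fetal bovine serum (groups EV_full, UTX_full and HEAA_full), or in sphere medium, which is MEM lacking serum, supplemented with B27 (the version lacking vitamin A) and with the growth factors EGF and FGF2, each at 20 ng/ml (EV_sphere, UTX_sphere and HEAA_sphere). In the second experiment all cells grew in full medium and carried pBabe-puro with wild type or S249C FGFR3, a receptor tyrosine kinase, together with pCDH-blasticidin, empty or with wild type UTX (EV_FGFR3WT, UTX_FGFR3WT, EV_FGFR3S249C and UTX_FGFR3S249C). The second experiment held no group without an FGFR3 vector. RNA was harvested on day 3 from 3 libraries per group, 30 in all. All groups come from 1 cell line, and the labels do not state if the replicates came from separate cultures; the p-values therefore reflect only how far these libraries spread, which may be technical.

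Cells build cholesterol from acetyl-CoA through mevalonate, farnesyl diphosphate, squalene and lanosterol. They build fatty acids from the same acetyl-CoA through malonyl-CoA, then elongate and desaturate them. Both arms are switched on by the SREBP transcription factors, encoded by SREBF1 and SREBF2, which are held in the endoplasmic reticulum by INSIG proteins when sterols are plentiful and released to the nucleus when sterols are scarce. Serum carries lipoprotein cholesterol and fatty acids into the culture.

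Library totals ran from 23749352 to 40111234 counts in the first experiment and from 21672408 to 28290664 in the second. KDM6A, the targeted gene, separated the groups as labelled: its level was 17.4 ± 0.745 CPM in EV_full, 579 ± 12.7 in UTX_full and 694 ± 7.34 in HEAA_full (mean ± SD, n = 3 libraries, as for all levels below). It was 8.18 ± 0.784, 861 ± 14.9 and 943 ± 15.3 CPM in the same order in sphere medium. In the second experiment it was 15.8 ± 1.02 CPM in EV_FGFR3WT, 824 ± 73.2 in UTX_FGFR3WT, 11.6 ± 1.36 in EV_FGFR3S249C and 862 ± 141 in UTX_FGFR3S249C. FGFR3 itself was at 1301 ± 74.9 and 1243 ± 47.4 CPM with the wild type vector (EV and UTX) and at 2322 ± 110 and 2588 ± 44.3 CPM with S249C, so FGFR3 RNA also differed in level between the vectors. The summed level of urothelial and epithelial markers (11 in the first table, 10 of them in the second) was between 6923 and 29088 CPM in every library, with UPK3A at 0 in every group of the first experiment. Fibroblast markers (7 in the first table, 5 in the second) summed to between 12.1 and 58.2 CPM. In the first experiment both sums moved with the medium and with UTX as given beside those results. In the second the urothelial sum was 8910 to 9300 CPM in EV_FGFR3WT and 8181 to 8466 in UTX_FGFR3WT. It was 7424 to 7665 CPM in EV_FGFR3S249C and 7976 to 8647 in UTX_FGFR3S249C. The fibroblast sum was 30.9 to 32.4, 23.2 to 26.8, 25.2 to 28.9 and 22.0 to 23.7 CPM in the same order. Their part in the results was not tested. Markers of leukocytes and endothelium summed to at most 7.01 CPM, and those of adipocytes and hepatocytes to at most 1.13 CPM in the first experiment. In bulk RNA, fewer cells of a type and less RNA per cell cannot be told apart. In 3 groups 1 library stood apart from the other two in a chi-square comparison of counts over all genes. For EV_sphere replicate 2 the chi-square per degree of freedom was 11.9 and 11.8, against 5.68 for the remaining pair. For EV_FGFR3S249C replicate 1 it was 11.2 and 11.4, against 3.93, and for UTX_FGFR3S249C replicate 3 it was 11.7 and 10.0, against 2.04. Counts that rest on these libraries are given below with and without them.

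**Figure D1:**
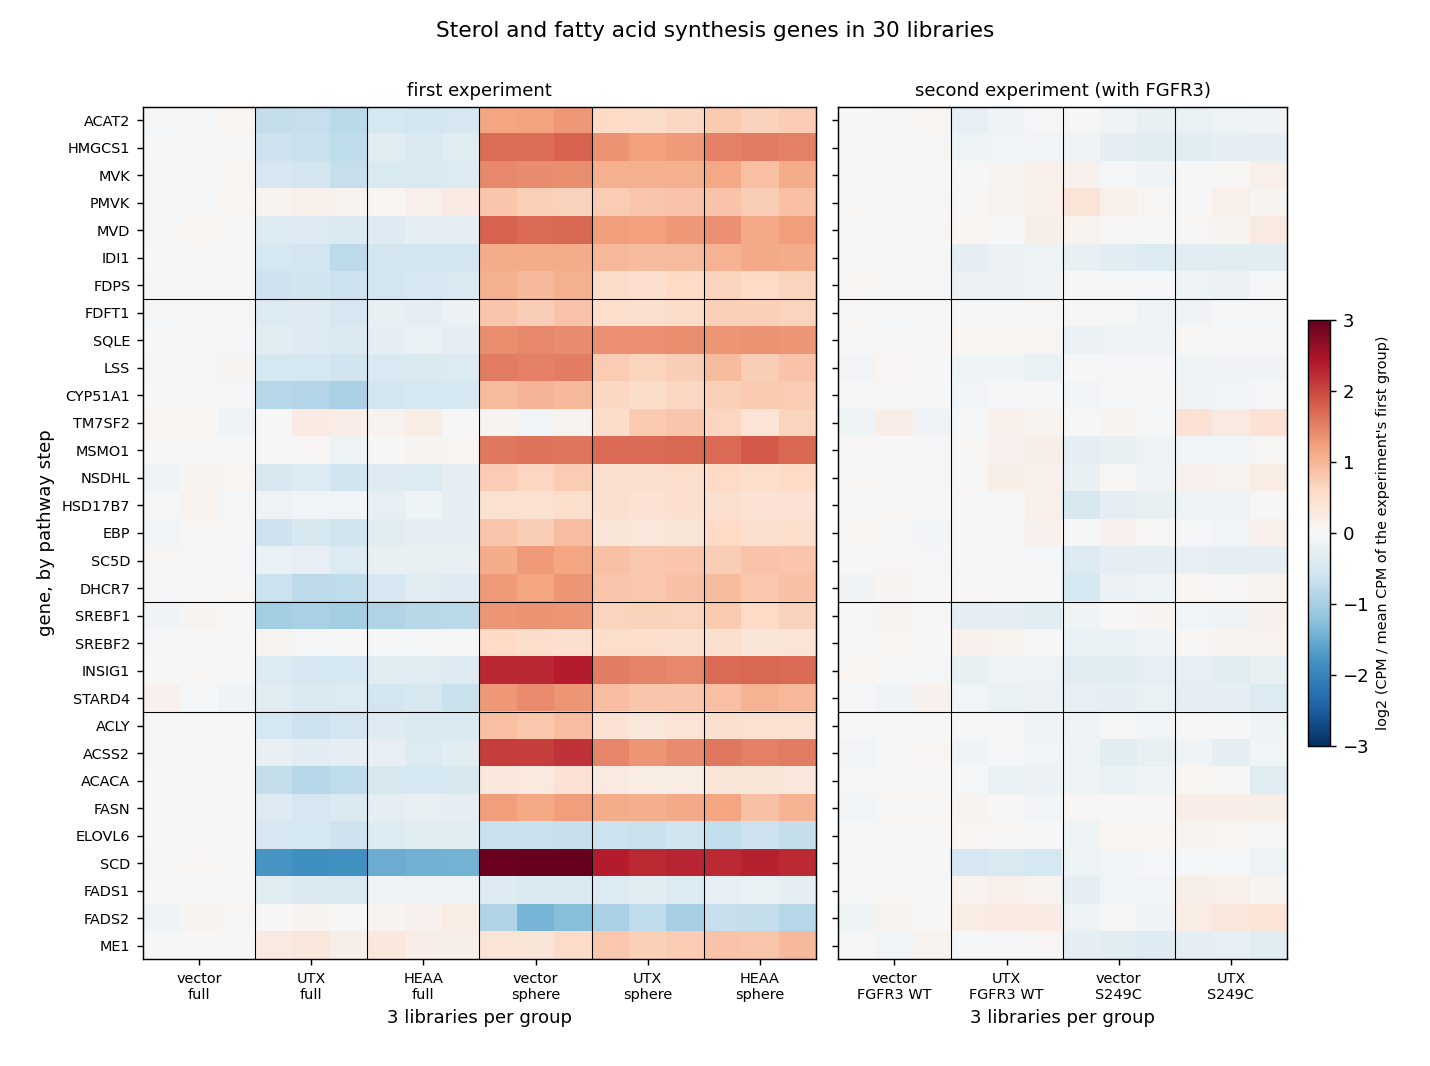
Log2 ratio of each gene's CPM to the mean of its experiment's first group (EV_full on the left, EV_FGFR3WT on the right), 1 column per library and 1 row per gene, with lines between groups and pathway steps. In sphere medium most rows are red in all 9 libraries, ELOVL6, FADS1 and FADS2 are blue, and SCD spans the widest range, while the second experiment is pale throughout.

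Most of the pathway was lower with wild type UTX in full medium. Of the 31 genes, 24 were called lower and 1 higher (edgeR, adjusted p under 0.05), against 29.2% of all 19629 genes tested called lower and 28.4% called higher. With upper-quartile scaling, 24 were lower and 4 higher. The median log2 fold change of the 31 was -0.48, beside 0.04 over all genes. The urothelial marker sum was 9589 to 9943 CPM in EV_full and 6923 to 7284 CPM in UTX_full, the fibroblast sum 44.3 to 54.2 and 51.5 to 58.2 CPM, and their part in this result was not tested. By group of steps, 6 of 7 mevalonate genes, 8 of 11 squalene and sterol genes, 3 of 4 regulators and carriers and 7 of 9 fatty acid genes were lower. In groups this small, these counts are read as no result about a single group.

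The largest fall was in SCD, the desaturase that makes monounsaturated fatty acids. Its levels were 299, 324 and 316 CPM in the EV_full libraries and 91.7, 87.8 and 88.3 CPM in UTX_full. The groups lay far apart, a 3.51-fold difference (log2 fold change -1.81 ± 0.04, SE, adjusted p = 3.45e-19). Among the other fatty acid genes, ACACA, the carboxylase that makes malonyl-CoA, stood at 156, 159 and 158 CPM in EV_full and at 96.4, 86.9 and 93.7 CPM in UTX_full (log2 fold change -0.77 ± 0.04, adjusted p = 6.48e-13). ACLY, which makes cytosolic acetyl-CoA from citrate, and the elongase ELOVL6 fell by 0.58 and 0.55 on the log2 scale. The fatty acid synthase FASN, the desaturase FADS1 and the acetate ligase ACSS2 fell by 0.43, 0.41 and 0.27. FADS2, the other front-end desaturase, was at 14.99 ± 1.07 and 15.1 ± 0.532 CPM and was not called. ME1, the malic enzyme that supplies NADPH, was the 1 gene that rose (0.26 ± 0.06 on the log2 scale, adjusted p = 0.00138), its level being 16.5 ± 0.226 CPM in EV_full and 19.7 ± 1.19 CPM in UTX_full.

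Of the regulators, SREBF1 fell and SREBF2 was not called. SREBF1, whose protein mainly drives fatty acid genes, was at 94.3, 107 and 101 CPM in EV_full and at 50.1, 51.7 and 49.3 CPM in UTX_full. These libraries did not overlap (a 50.1% fall, SE of the log2 fold change 0.05, adjusted p = 2.61e-13). Of all genes tested, 31.5% lay lower and 32.1% higher in UTX_full without overlap. SREBF2, whose protein mainly drives sterol genes, was at 244, 252 and 251 CPM in EV_full and 262, 242 and 248 CPM in UTX_full, with overlapping libraries and a log2 fold change of 0.01. INSIG1, the sterol-dependent retention factor and itself an SREBP target, fell from 43.5 ± 0.8 to 31.2 ± 1.26 CPM (log2 fold change -0.48 ± 0.04), and the sterol carrier STARD4 from 16.1 ± 1.39 to 12.2 ± 0.41 CPM (log2 fold change -0.38 ± 0.07).

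In the sterol arm the largest falls were in CYP51A1, ACAT2, DHCR7 and HMGCS1. CYP51A1, the lanosterol demethylase, was at 145, 146 and 140 CPM in EV_full and 79.0, 78.5 and 73.3 CPM in UTX_full (log2 fold change -0.90 ± 0.04). ACAT2, the cytosolic acetoacetyl-CoA thiolase at the head of the pathway, was at 87.9, 88.6 and 93.9 CPM against 54.9, 56.1 and 51.3 CPM (log2 fold change -0.74 ± 0.04). DHCR7, the last reductase before cholesterol, and HMGCS1, the HMG-CoA synthase, fell by 0.73 and 0.68 on the log2 scale. The libraries of EV_full and UTX_full did not overlap for any of these 4 genes, as for 31.5% of all genes in this direction. The mevalonate kinase MVK, the isomerase IDI1 and the prenyltransferase FDPS had log2 fold changes of -0.59, -0.63 and -0.62. The cyclase LSS, the isomerase EBP and the dehydrogenase NSDHL followed with -0.55, -0.57 and -0.51, and FDFT1, MVD, SQLE and SC5D with -0.43, -0.41, -0.38 and -0.28. The 4 sterol arm enzymes that were not called were PMVK (0.12), the sterol reductase TM7SF2 (0.15), the methyl sterol oxidase MSMO1 (-0.04) and HSD17B7 (-0.11).

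The fall was also present with HEAA. In HEAA_full against EV_full, 25 genes were lower and 2 higher, against 25.3% and 23.2% of all genes, with a median log2 fold change of -0.35. This comparison and the one above share the EV_full libraries. SCD was at 111, 115 and 118 CPM in HEAA_full (log2 fold change from EV -1.45 ± 0.04), SREBF1 at 53.8, 56.8 and 57.9 CPM (-0.84 ± 0.05) and CYP51A1 at 98.2 to 100.05 CPM (-0.53 ± 0.04). All 3 lay between their EV_full and UTX_full levels. PMVK and ME1 were the 2 that rose, and the call of PMVK was lost in 6 of 12 alternative settings.

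Wild type UTX and HEAA were also compared directly. In UTX_full against HEAA_full, 15 genes were lower and 0 higher, against 12.4% and 8.95% of all genes, with a median log2 fold change of -0.13. With upper-quartile scaling 12 were lower and 1 higher, and without HEAA_full replicate 2 the counts were 11 and 2. With any 1 library of the compared groups left out, 12 to 14 genes were called. The calls of FASN and FDPS were lost in 6 of 12 alternative settings each, and that of SREBF1 in 5. The differences were small: CYP51A1 was lower in UTX by 0.37 ± 0.04 on the log2 scale, SCD by 0.36 ± 0.04, DHCR7 by 0.31 ± 0.05, HMGCS1 by 0.30 ± 0.04 and ACACA by 0.28 ± 0.04 (adjusted p between 5.1e-07 and 0.000101). KDM6A was higher in HEAA_full than in UTX_full (694 and 579 CPM), and the part of that dose in these differences was not tested.

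Most of the pathway was higher in sphere medium. The media differed at once in serum, B27, EGF and FGF2, so the parts of these cannot be told apart. In EV_sphere against EV_full, 27 of the 31 genes were higher and 3 lower, against 33.1% and 32.4% of all genes, with a median log2 fold change of 1.10 beside -0.03 over all genes. Without EV_sphere replicate 2 the counts were also 27 and 3. The urothelial marker sum was higher in EV_sphere (27511 to 29088 CPM) than in EV_full, and the fibroblast sum lower (12.1 to 13.8 CPM); their part in the medium effect was not tested. SCD rose from 299, 324 and 316 CPM to 2405, 2494 and 2473 CPM, a 7.85-fold difference (log2 fold change 2.97 ± 0.04, adjusted p = 9.31e-24). INSIG1 rose from 43.1, 44.4 and 43.0 CPM to 210, 208 and 223 CPM (4.91-fold), and ACSS2 from 57.4, 59.9 and 59.3 CPM to 247, 250 and 266 CPM (4.32-fold). No library of either medium overlapped the other for these 3 genes, as for 34.7% of all genes in this direction.

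All 7 mevalonate genes rose, most of all MVD (3.31-fold) and HMGCS1 (3.27-fold). HMGCS1 was at 203, 198 and 208 CPM in EV_full and at 650, 646 and 693 CPM in EV_sphere. Of the 11 squalene and sterol genes, 10 rose, led by MSMO1 (3.04-fold, from 61.2 ± 0.812 to 186 ± 1.89 CPM), LSS (2.90-fold) and SQLE (2.67-fold), the epoxidase that makes the first oxygenated sterol precursor. The exception was TM7SF2, at 7.30 ± 0.497 and 7.49 ± 0.552 CPM. SREBF1, STARD4 and SREBF2 rose 2.51-fold, 2.56-fold and 1.46-fold.

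The fatty acid arm split. FASN rose from 523 ± 6.38 to 1227 ± 44.8 CPM (2.35-fold) and ACLY, ACACA and ME1 also rose, while the elongase ELOVL6 and both front-end desaturases fell. FADS2 was at 13.8, 15.8 and 15.4 CPM in EV_full and at 8.08, 5.71 and 6.18 CPM in EV_sphere (log2 fold change -1.17 ± 0.10, adjusted p = 4.03e-10). ELOVL6 went from 55.6, 55.3 and 56.0 CPM to 35.2, 35.0 and 34.5 CPM (-0.67 ± 0.04), and FADS1 from 146 ± 0.4 to 107 ± 2.69 CPM (-0.44 ± 0.04). FADS1 and FADS2 make long-chain polyunsaturated fatty acids, and ELOVL6 elongates saturated and monounsaturated ones.

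With either UTX vector most of the pathway was again higher in sphere medium. In UTX_sphere against UTX_full, 28 genes were higher and 1 lower, against 35.1% and 35.4% of all genes. In HEAA_sphere against HEAA_full, 28 were higher and 3 lower, against 34.4% and 36.3%, and the lower call of FADS1 was lost in 9 of 12 alternative settings. The EV and UTX comparisons share no library: 27 genes were higher in both the EV and the UTX comparison, 1 was lower in both and 0 moved in opposite directions. Over all 15335 named genes, 4890 were higher in both, 3836 lower in both and 4.68% moved in opposite directions, so a count of 0 among 31 is near that background. TM7SF2 was higher in sphere medium with UTX (log2 fold change 0.59 ± 0.10) and with HEAA (0.47 ± 0.09). With upper-quartile scaling the median of all genes itself moved to -0.22 in the UTX comparison, and 28 genes were called higher and 3 lower under it.

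**Figure D2:**
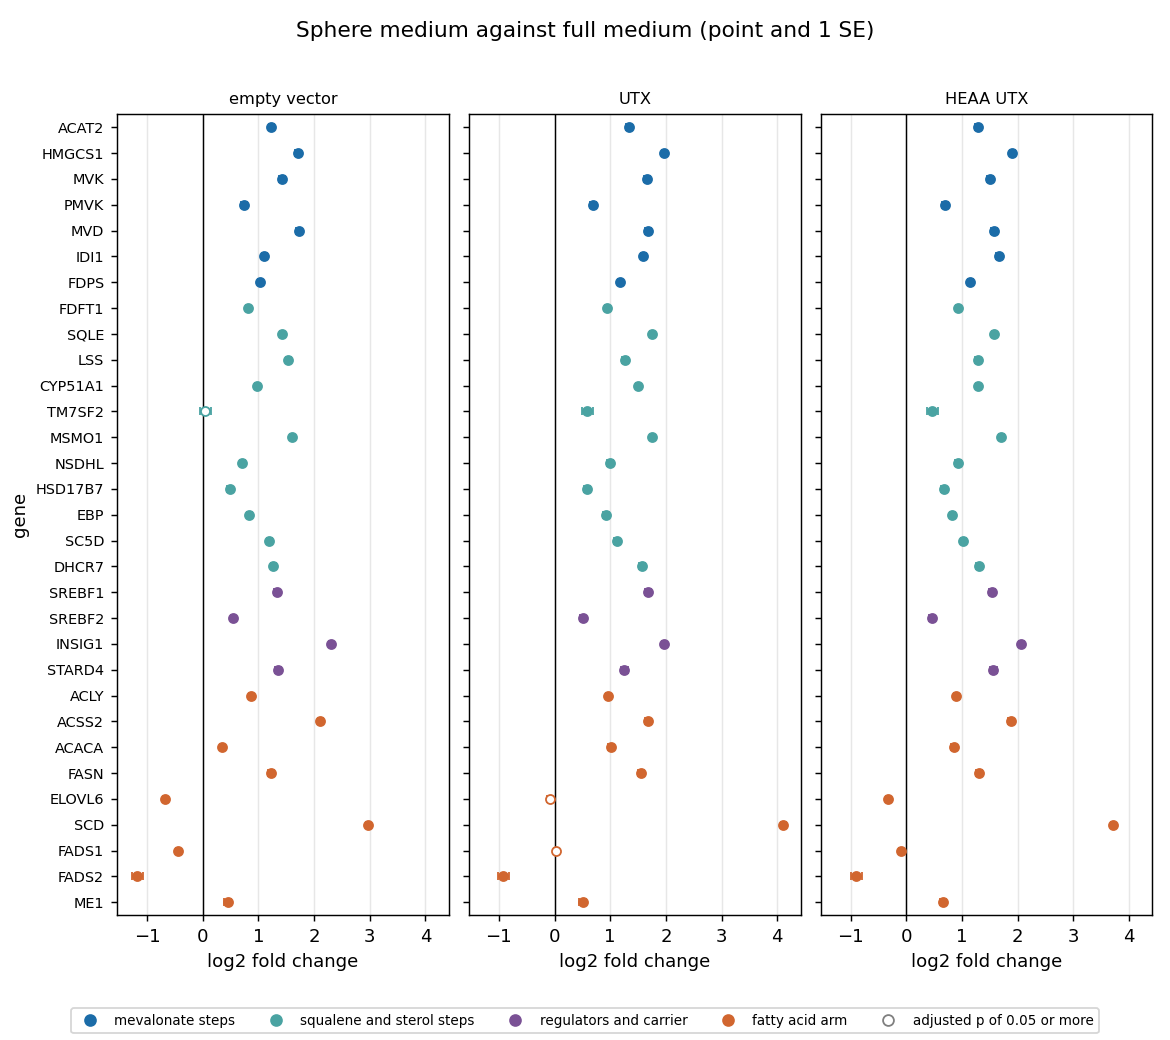
Log2 fold change of sphere against full medium (x axis) for each gene (y axis) in EV, UTX and HEAA cells. Points are edgeR estimates with 1 SE, open where the adjusted p is 0.05 or more, and colours mark the pathway steps. SCD is at 2.97, 4.11 and 3.71 in the 3 panels, and FADS2 is the gene furthest to the left in each, at -1.17, -0.92 and -0.90.

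In sphere medium most of the pathway was lower with UTX as well, but each arm also held genes called higher or not called. In UTX_sphere against EV_sphere, 20 genes were lower and 4 higher, against 25.6% and 22.8% of all genes, with a median log2 fold change of -0.35. The median log2 ratio to EV_full of sterol arm genes was 1.11, 1.15 and 1.14 in EV_sphere. It was 0.76, 0.80 and 0.83 in UTX_sphere. For the fatty acid arm it was 0.38, 0.36 and 0.58 against 0.43, 0.33 and 0.41. In that arm ACLY, ACSS2, SCD and ACACA were lower, FADS2 and ME1 higher, and FASN, ELOVL6 and FADS1 not called. In the sterol arm TM7SF2 and MSMO1 were higher, PMVK, SQLE and HSD17B7 not called, and the others lower. No library is shared with the full medium comparison: 20 genes were lower in both, 1 was higher in both and 0 were called in opposite directions. Of 15335 named genes, 3141 were lower in both, 2470 higher in both and 6.59% called in opposite directions, so the count of 0 is near that background. Without EV_sphere replicate 2, 21 genes were lower and 2 higher in sphere medium. The urothelial marker sum was 12336 to 12632 CPM in UTX_sphere and the fibroblast sum 21.2 to 23.4 CPM, and their part was not tested. LSS, INSIG1 and ACSS2 fell most. LSS was at 337, 324 and 333 CPM in EV_sphere and at 192, 181 and 189 CPM in UTX_sphere (log2 fold change -0.82 ± 0.05, adjusted p = 2.65e-12). INSIG1 was at 210, 208 and 223 CPM against 125, 122 and 118 CPM (-0.81 ± 0.04), and ACSS2 at 247, 250 and 266 CPM against 161, 148 and 157 CPM (-0.71 ± 0.04). The libraries did not overlap for any of the 3, as for 28.8% of all genes in this direction.

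SCD, SREBF1 and ACAT2 fell by 0.68, 0.65 and 0.64 on the log2 scale in sphere medium. SCD remained at 1604, 1474 and 1536 CPM in UTX_sphere, far above its level in any full medium library. TM7SF2 rose from 7.75, 6.86 and 7.87 CPM to 10.7, 12.5 and 13.1 CPM (log2 fold change 0.69 ± 0.10, adjusted p = 3.57e-06) and ME1 from 22.4 ± 1.94 to 27.9 ± 0.847 CPM. The calls of MSMO1 (0.10, adjusted p = 0.0405), FADS2 (0.26, adjusted p = 0.0495) and ACACA (-0.11, adjusted p = 0.0251) rest on small differences, and each was lost in 6 or 7 of 12 alternative settings. PMVK, SQLE, HSD17B7, SREBF2, FASN, ELOVL6 and FADS1 were not called. HEAA_sphere against EV_sphere, which shares the EV_sphere libraries, gave 20 lower and 5 higher with and without EV_sphere replicate 2, against 21.5% and 19.9%. Without HEAA_sphere replicate 2 the counts were 16 and 6, and without the filter on low counts 17 and 5. The calls of NSDHL, FDFT1 and SREBF2 were lost in 7, 5 and 5 of 12 alternative settings. In UTX_sphere against HEAA_sphere 10 genes were lower and 0 higher (8 and 1 with upper-quartile scaling), against 11.2% and 8.87% of all genes. The largest were HMGCS1 (-0.24 ± 0.04) and INSIG1 (-0.22 ± 0.04). With any 1 library of the compared groups left out, 7 to 11 genes were called. The calls of LSS and ACACA were lost in 6 of 12 alternative settings each. KDM6A was higher in HEAA_sphere than in UTX_sphere, as given above, and the part of that dose was not tested.

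**Figure D3:**
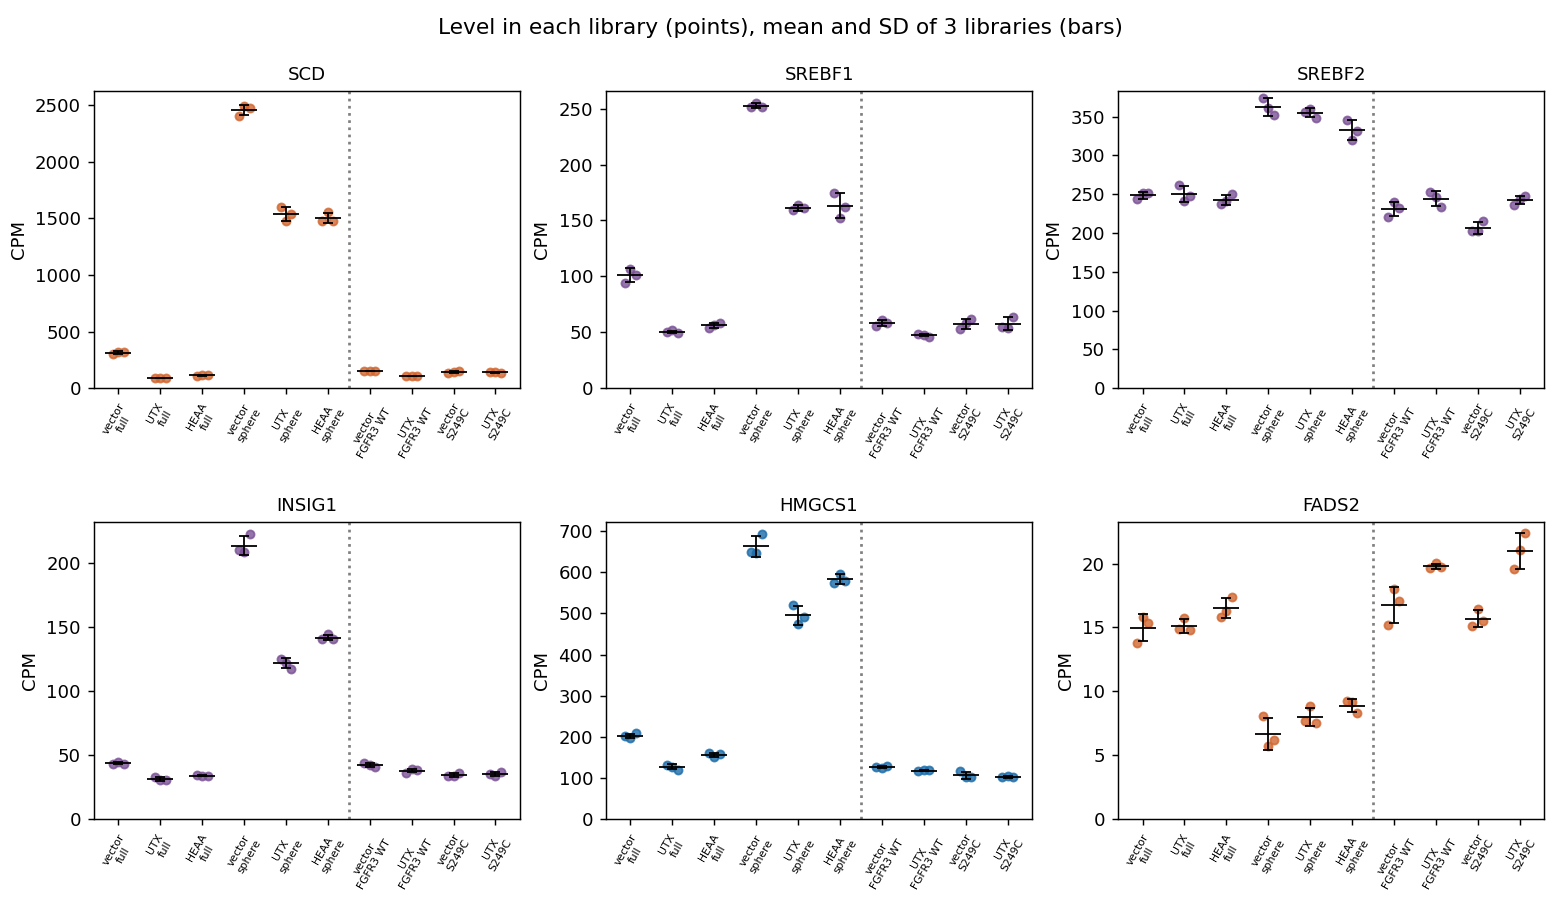
CPM (y axis, from 0, a scale of its own in each panel) of 6 genes in the 10 groups, with 1 point per library and bars for the mean and SD of 3 libraries; a dotted line parts the 2 experiments. SCD, SREBF1 and INSIG1 are lower with UTX or HEAA than with EV in both media, and FADS2 is lowest in sphere medium.

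The UTX effect was tested for a difference between media as an interaction, the effect in sphere minus that in full medium. KDM6A itself was higher in sphere than in full medium in UTX and HEAA cells, as given above, and the part of that dose was not tested. The interaction was called positive for 16 genes and negative for 3, against 21.1% and 16.2% of all genes, and for 14 and 3 without EV_sphere replicate 2. SCD had the largest value (1.13 ± 0.05, adjusted p = 4.73e-13): its fall with UTX was 3.51-fold in full medium and 1.60-fold in sphere medium. ACACA (0.66), ELOVL6 (0.59), TM7SF2 (0.54), CYP51A1 (0.52) and IDI1 (0.49) followed. ACSS2 (-0.43), INSIG1 (-0.33) and LSS (-0.27) fell more in sphere medium. For HEAA the same interaction was positive for 12 genes and negative for 3, against 18.7% and 14.3%. That split was 9 and 6 with upper-quartile scaling, 15 and 1 without the filter on low counts, and 10 and 3 without EV_sphere replicate 2. Without HEAA_sphere replicate 2 it was 16 and 2.

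In cells with an FGFR3 vector the UTX effect on these genes was small. In UTX_FGFR3WT against EV_FGFR3WT, 6 genes were lower and 1 higher, against 6.01% and 9.06% of all 19399 genes tested, with a median log2 fold change of -0.01. SCD again moved most, from 148, 154 and 149 CPM to 106, 110 and 105 CPM (log2 fold change -0.49 ± 0.04, adjusted p = 2.01e-06). SREBF1 was at 55.6, 61.3 and 57.9 CPM against 48.0, 47.8 and 46.1 CPM (-0.30 ± 0.07, adjusted p = 0.00859). Neither pair of groups overlapped, as for 16.2% of all genes in this direction. IDI1, INSIG1, LSS and FDPS fell by 0.20, 0.16, 0.15 and 0.15, and FADS2 rose by 0.24. Of these calls, INSIG1 was lost in 8 of 12 alternative settings, FDPS and FADS2 in 6 each, LSS in 4 and IDI1 in 1, and with DESeq2 5 genes were lower and 0 higher. The 6 genes that fell here also fell with UTX in the first experiment in full medium, with no shared library, where 24 of the 31 fell; of 14424 named genes, 732 were lower in both and 337 were called in opposite directions. With any 1 of the 6 libraries left out, 2 to 4 genes were called.

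With the S249C vector the called genes were higher with UTX. In UTX_FGFR3S249C against EV_FGFR3S249C, 10 genes were higher and 0 lower, against 12.9% and 8.62% of all genes, with a median log2 fold change of 0.05. FADS2 was at 15.2, 16.4 and 15.5 CPM in EV and 19.5, 21.1 and 22.4 CPM with UTX (log2 fold change 0.42 ± 0.07, adjusted p = 0.000557). TM7SF2 (0.37), DHCR7 (0.33), FADS1 (0.28), NSDHL (0.25), SREBF2 (0.23), HSD17B7 (0.23), MSMO1 (0.18), SQLE (0.16) and FASN (0.16) also rose. The call of HSD17B7 was lost in 7 of 12 alternative settings, that of FASN in 6, of MSMO1 in 4 and of NSDHL in 1. EV_FGFR3S249C replicate 1, which stood apart, was the lowest library of its group for DHCR7 (85.6 CPM against 108 and 111), FADS1 (117 against 137 and 137), NSDHL (48.9 against 58.8 and 53.6) and HSD17B7 (14.5 against 17.0 and 17.5). Without it 7 genes were higher and 0 lower, and NSDHL, HSD17B7 and MSMO1 were not called. Without UTX_FGFR3S249C replicate 3, 9 were higher and 1 lower. SCD was at 136, 142 and 147 CPM in EV and 146, 143 and 136 CPM with UTX, fully overlapping. Of these 10 genes, 5 had fallen with UTX in the first experiment in full medium, so 16.1% of the 31 were called in opposite directions, beside 561 of 14424 named genes (3.89%); the difference between experiments was not tested, since the kits, vectors and tables differed. The interaction of UTX with the FGFR3 vector was called for SCD alone among the 31 (0.49 ± 0.06, adjusted p = 0.00169), so 1 was positive and 0 negative, against 0.572% and 0.113% of all genes. Without UTX_FGFR3S249C replicate 3, a second gene, ACACA, was called, and without EV_FGFR3S249C replicate 1 the count was 1.

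**Figure D4:**
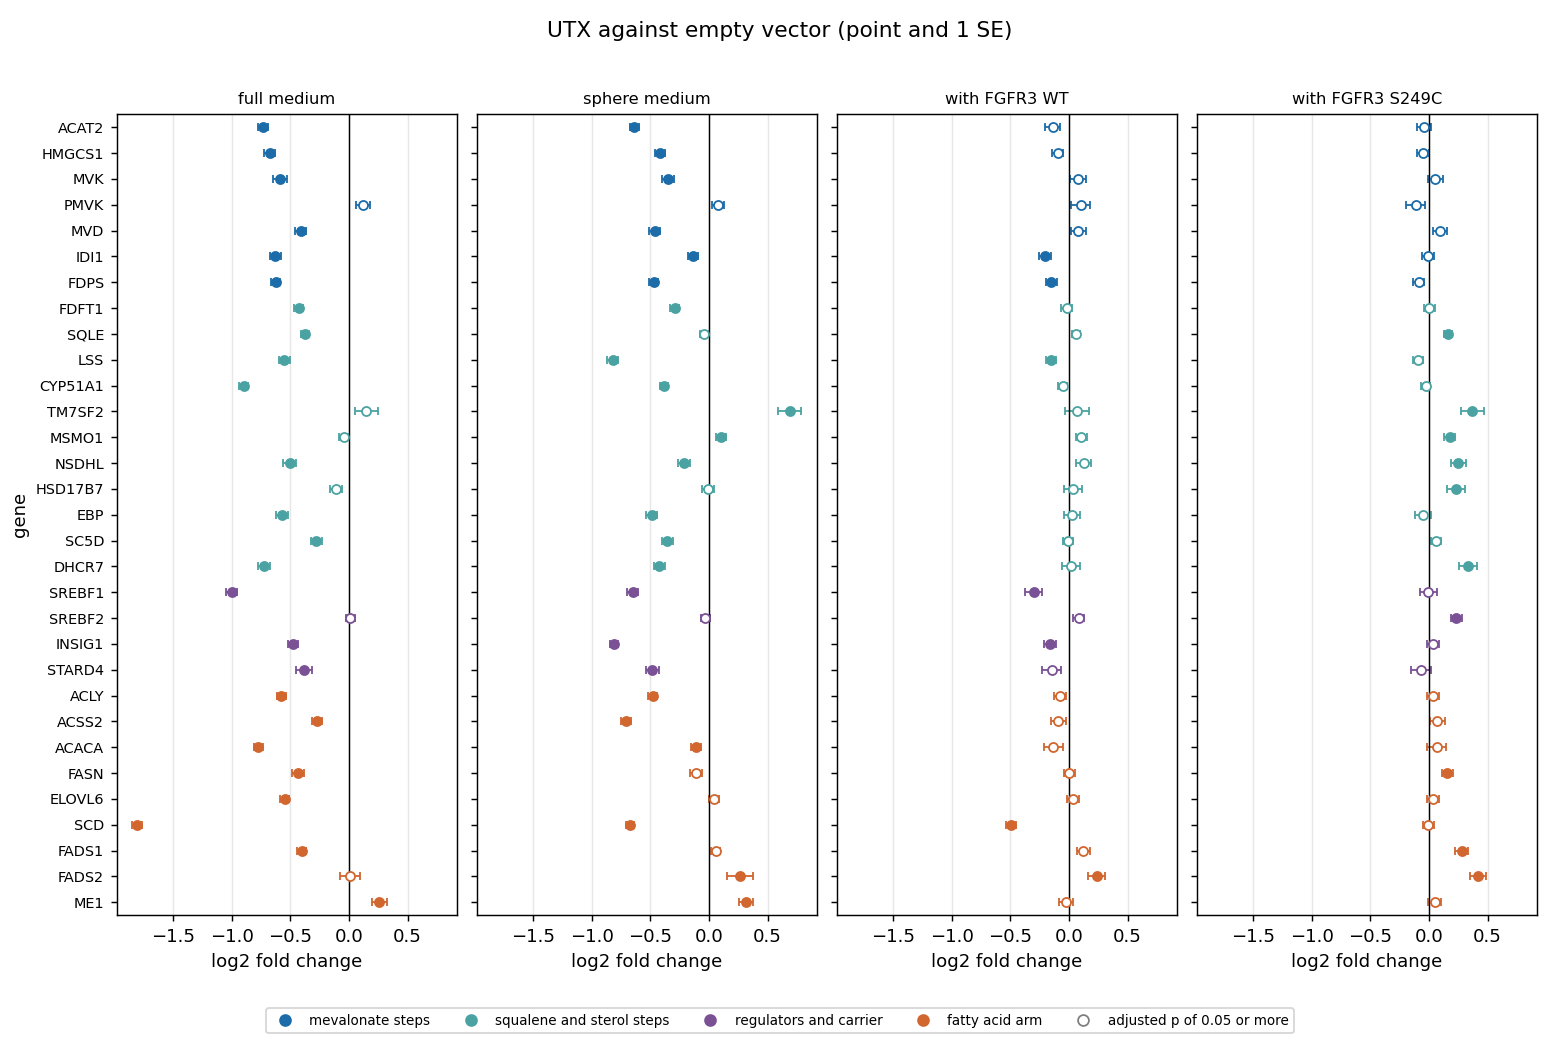
Log2 fold change of UTX against EV (x axis) for each gene (y axis) in full medium, sphere medium, with wild type FGFR3 and with S249C. Points are edgeR estimates with 1 SE, open where the adjusted p is 0.05 or more, and colours mark the pathway steps. SCD lies at -1.81, -0.68, -0.49 and -0.00 from left to right.

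The S249C vector was compared with the wild type one in each background, using the same libraries as the UTX comparisons above. In EV cells, EV_FGFR3S249C against EV_FGFR3WT, 11 genes were lower and 0 higher, against 6.45% and 4.31% of all genes. SC5D (-0.33), ME1 (-0.32), HSD17B7 (-0.32), IDI1 (-0.31) and INSIG1 (-0.30) led, and INSIG1 was at 44.1, 41.9 and 40.8 CPM with wild type and 33.8, 33.4 and 35.8 CPM with S249C. DHCR7 (-0.27), HMGCS1 (-0.24), MSMO1 (-0.22), ACSS2 (-0.22), SREBF2 (-0.16) and SQLE (-0.15) were the others. DHCR7, HSD17B7, MSMO1, SREBF2 and SQLE were also called higher with UTX beside S249C. Both of those comparisons rest on the EV_FGFR3S249C libraries. FGFR3 RNA was higher with the S249C vector, as given above, so its level and the mutation cannot be told apart. The count was 6 without EV_FGFR3WT replicate 2, 7 without EV_FGFR3WT replicate 3 and 8 without EV_FGFR3S249C replicate 1. The call of SREBF2 was lost in 7 of 12 alternative settings, those of ACSS2 and DHCR7 in 5, of HSD17B7 in 3 and of SQLE in 2. In UTX cells, UTX_FGFR3S249C against UTX_FGFR3WT, 3 genes were higher (SCD 0.41, SREBF1 0.28, FASN 0.18) and 2 lower (SC5D -0.27, ME1 -0.25), against 1.71% and 1.34% of all genes. With any 1 of the 6 libraries left out, 2 or 3 genes were called. Without UTX_FGFR3S249C replicate 3, 1 was higher and 1 lower. The calls of ME1, FASN and SREBF1 were lost in 8, 7 and 5 of 12 alternative settings.

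Other genes of sterol handling were read from a list of 12. The counts of this and the further lists with UTX in full medium stand beside 29.2% of all genes called lower and 28.4% called higher. Of the 12, 8 were lower and 2 higher. TMEM97 fell with UTX by 1.11 on the log2 scale in full medium and by 0.61 in sphere medium, and SCARB1, a lipoprotein receptor, rose by 0.90 in full medium. Of 18 further fatty acid and glycerolipid genes, 9 were lower and 3 higher with UTX in full medium. DGAT2, which makes triglyceride, was higher with UTX in full (1.75 ± 0.21) and sphere medium (2.95 ± 0.12), and ACACB, the mitochondrial acetyl-CoA carboxylase, was lower in both (-0.97 and -1.34). ABCA1 and ABCG1, cholesterol exporters that LXR receptors induce, rose in EV cells with sphere medium by 2.67 and 1.75. They are named for the size of their change, and 33.1% of all genes were called higher and 32.4% lower there. Among 8 genes of SREBP processing, 2 were higher and 3 lower with UTX in full medium, a share near that of all genes. With UTX in full medium, 5 of 8 LXR targets and receptors were higher and 1 lower, 2 of 12 genes of the isoprenoid branch higher and 7 lower, 5 of 14 genes of fatty acid oxidation higher and 5 lower, and 3 of 6 genes of NADPH supply (ME1 among them) higher and 2 lower. In lists this short, these counts are read as no result about the lists.

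RefSeq promoter windows on GRCh38.p14 (250 bases before to 50 after the start) were found for 27 of the 31 genes; the authors' notes name hg19 and GRCh37, so these positions are RefSeq's and not the authors'. The NF-Y box CCAAT, read on both strands, was present in 21 of the 27 genes (77.8%) against 39.7% of the 27305 genes in the table. The Sp1 box GGGCGG was present in 26 of 27 (96.3%) against 48.3%, and the E-box CACGTG in 3 (11.1%) against 8.78%. The sterol regulatory element pattern TCACNCCAC was matched in SREBF2 alone (3.70% against 1.39%). These are letter matches, not measured binding. The 27305 genes were not limited to those that passed the filter on low counts, as the 27 did. A gene counted if any of its windows held the letters, with 37 windows for the 27 genes and 35116 for all. The part of either in these shares was not tested. The 250 bases before the start are shown for the regulators and for SCD, which carried the widest range of levels; capitals mark CCAAT, its reverse complement ATTGG, and the sterol pattern.
SREBF1, chr17:17836987-17837236, minus strand: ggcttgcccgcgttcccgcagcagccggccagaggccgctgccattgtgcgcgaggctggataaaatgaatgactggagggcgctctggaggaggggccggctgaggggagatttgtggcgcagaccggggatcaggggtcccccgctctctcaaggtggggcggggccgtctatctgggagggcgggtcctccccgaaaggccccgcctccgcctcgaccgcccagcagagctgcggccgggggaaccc
SREBF2, chr22:41832855-41833104, plus strand: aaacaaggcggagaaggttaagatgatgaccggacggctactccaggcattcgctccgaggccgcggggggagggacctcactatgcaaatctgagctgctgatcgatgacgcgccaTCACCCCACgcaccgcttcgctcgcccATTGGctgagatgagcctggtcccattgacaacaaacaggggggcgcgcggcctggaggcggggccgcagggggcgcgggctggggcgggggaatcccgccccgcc
INSIG1, chr7:155297628-155297877, plus strand: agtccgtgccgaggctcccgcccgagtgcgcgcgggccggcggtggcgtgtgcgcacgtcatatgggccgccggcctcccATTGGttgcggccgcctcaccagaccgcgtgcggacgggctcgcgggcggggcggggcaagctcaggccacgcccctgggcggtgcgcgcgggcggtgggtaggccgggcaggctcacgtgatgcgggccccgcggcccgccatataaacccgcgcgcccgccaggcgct
SCD, chr10:100346983-100347232, plus strand: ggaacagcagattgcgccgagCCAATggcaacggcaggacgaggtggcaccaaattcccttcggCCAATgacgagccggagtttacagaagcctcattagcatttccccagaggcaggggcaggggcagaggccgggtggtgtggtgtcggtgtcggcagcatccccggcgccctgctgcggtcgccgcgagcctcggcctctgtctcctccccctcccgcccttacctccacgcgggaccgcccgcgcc
In these stretches SREBF1 held 0 CCAAT boxes, SREBF2 and INSIG1 1 each, and SCD 2.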

How the data were processed

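RNA-seq of UMUC1 cells was analysed in 2 experiments of 18 and 12 libraries, 3 per group. The authors deposited the expected counts (an estimated count per gene, written as whole numbers and not scaled) after quantification; Salmon 0.8, DESeq2, hg19 and GRCh37 are named per the submitters' processing notes. No source used here gives the annotation release or the filter behind the shorter second table. Each experiment was fitted over all its groups and genes in R 4.3.3 by edgeR 4.0.16 (TMM factors, genes kept by filterByExpr on the groups, quasi-likelihood F tests, Benjamini-Hochberg adjustment over all genes tested, threshold 0.05). The fit was tested on simulated data, where recovery was judged only for large changes in well counted genes, after wider conditions had failed; smaller changes, as many here are, were recovered less completely. SE was obtained by dividing the absolute log2 fold change by the root of F, and levels are CPM with TMM factors. Groups came from sample titles. The genes, lists and tests were chosen with earlier results of these data known. All 31 genes are named; of each further list, at most the 3 called genes with the largest change per comparison. Some genes of these lists are counted but not reported here by name. Further lists covered sterol handling, SREBP processing, LXR targets, isoprenoids, fatty acid and glycerolipid genes, oxidation, NADPH supply and 4 sets of cell type markers. Alternatives were DESeq2 1.42.0, RLE or upper-quartile scaling, no filter, a replicate block, only the compared groups, and each replicate left out in turn. Total counts per library were 21672408 to 40111234, and the common biological coefficient of variation was 4.58% and 6.05%.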

Additional observations from a re-analysis of the deposited data

Results flagged for a closer look

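The effect of UTX differed between the media, by edgeR's test of the difference itself with Benjamini-Hochberg adjustment over all genes, for 19 of the 31 genes. The differences (log2 fold change in sphere minus that in full medium) were HMGCS1 0.26, MVK 0.24, IDI1 0.49, FDPS 0.15, FDFT1 0.14, SQLE 0.34, CYP51A1 0.52, TM7SF2 0.54, NSDHL 0.29, DHCR7 0.30, SREBF1 0.35, ACACA 0.66, FASN 0.32, ELOVL6 0.59, SCD 1.13 and FADS1 0.46. They were negative for LSS -0.27, INSIG1 -0.33 and ACSS2 -0.43. Of these, the adjusted p was lowest for SCD (4.73e-13) and highest for FDFT1 (0.0436). The calls of FDFT1, FDPS and MVK were lost in 8, 6 and 2 of 18 alternative settings.

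The effect of HEAA differed between the media for 15 genes. The differences were HMGCS1 0.19, IDI1 0.55, SQLE 0.16, CYP51A1 0.31, TM7SF2 0.43, NSDHL 0.21, HSD17B7 0.19, SREBF1 0.21, ACACA 0.51, ELOVL6 0.35, SCD 0.74 and FADS1 0.34. They were negative for LSS -0.26, INSIG1 -0.23 and ACSS2 -0.23. The 2 sets of values share the EV libraries of both media. The adjusted p was lowest for SCD (7.07e-10) and highest for HSD17B7 (0.0486). The calls of HSD17B7, NSDHL and ACSS2 were lost in 9, 5 and 4 of 18 alternative settings. Those of LSS, INSIG1, SQLE and TM7SF2 were lost in 1 each.

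The effect of UTX differed between the FGFR3 vectors for 1 gene, SCD, by 0.49 on the log2 scale (adjusted p = 0.00169). Single values in groups of 3 libraries were not screened for outliers.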

How the results depend on the processing

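Over 16 comparisons and 31 genes, no called gene changed direction under any alternative. Of 496 results (called or not), 482 kept their side of the threshold with DESeq2, 494 with RLE factors, 468 with upper-quartile factors, 478 without the filter, and 445 of 465 with only the compared groups. With 1 replicate left out, 3331 of 3534 kept theirs and 152 lost a call. Upper-quartile scaling moved the median log2 fold change of all genes to at most 0.22 in size. The labels do not say what a replicate number shares. Correlations of same-numbered deviations ran from -0.207 to 0.155 in the first experiment (mean -0.02), with 4 of 45 over 0.1. In the second they ran from -0.228 to 0.406 (mean 0.02), with 7 of 18 over 0.1. With so few libraries these values cannot settle if the numbers pair the libraries. A replicate block lost 8 calls and gained 0, and gave 3 called genes for UTX_FGFR3S249C against UTX_FGFR3WT, as did fitting only those groups (3), instead of 5. With 1 library left out, the called genes numbered 2 to 4 (7 with all) for UTX_FGFR3WT against EV_FGFR3WT, 6 to 11 (11 with all) for EV_FGFR3S249C against EV_FGFR3WT, 2 to 3 (5 with all) for UTX_FGFR3S249C against UTX_FGFR3WT and 1 to 2 (1 with all) for the interaction of UTX with FGFR3; in the other 12 comparisons they stayed within 1.5 times the count with all libraries. The cause of these changes was not tested.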
